A study of Bos taurus with 12 samples.

Results

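The nuclear-encoded subunits of oxidative phosphorylation were followed as 1 gene module in bovine conceptuses and in the fibroblasts used to clone them. Members were the genes on an Affymetrix bovine array whose single symbol is NDUFA, NDUFB, NDUFC, NDUFS or NDUFV with a number, SDHA to SDHD, or begins with UQCR, COX4 to COX8 or ATP5. Assembly factors with NDUFAF symbols were left out. The rule gave 79 of the 9155 genes named on the array, measured by 100 probe sets, and each gene is represented by its brightest probe set over the 12 arrays. Complex I had 35 genes, complex II 4, complex III 8, complex IV 15 and complex V 17, with NDUFA4 and its relative NDUFA4L2 counted in complex IV, where the protein is now placed.

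Oxidative phosphorylation takes place in the inner mitochondrial membrane. Complexes I and II pass electrons from NADH and succinate to ubiquinone, complex III passes them on to cytochrome c, and complex IV hands them to oxygen. Complexes I, III and IV pump protons, and complex V, the ATP synthase, lets the protons return and makes ATP. The elongating ruminant conceptus, mostly trophoblast, grows rapidly before it attaches to the uterus. Several core subunits are encoded by mitochondrial DNA and are not among the genes described here.

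There were 4 groups of 3 arrays. Conceptuses of all 3 origins were elongated and were recovered on day 16 from cows that had received embryos on day 7. In AI the transferred embryos had been made in vivo by inseminating cows, in IVP they had been produced in the laboratory from oocytes, and in SCNT they were clones made by moving a body cell nucleus into an oocyte. FB are the fibroblasts that were the nuclear donors, so SCNT conceptuses and FB share a nuclear source, which AI and IVP conceptuses are not stated to share. Breed, sex, age of the cows, passage of the cells and the number of donor lines are not stated in these sources. Separate conceptuses or cultures, or pools of them, are not named for any replicate, so the p-values rest on differences among arrays that could be technical in part. The labels title FB arrays as embryos, but 11 of 13 fibroblast markers and 0 of 10 trophoblast markers had a mean above log2 4 there, against 4 and 8 in each conceptus group. In the conceptuses COL1A1, COL1A2, COL3A1, VIM, DCN and LUM lay below log2 4, as did POSTN, PDGFRB and S100A4. The 4 above it there were FN1, SPARC, TAGLN and THY1. FN1 stood at 10.38 to 11.52 in conceptuses and 10.69 to 10.92 in FB, with overlap. THY1 went the other way, at 4.06 to 5.32 in conceptuses and 2.78 to 3.28 in FB.

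Of each array's probe sets 26.5% to 27.7% lay above log2 4, the level under which signals were not read as expression. Spike-in control probe sets averaged 8.91 on AI 2, 8.94 on IVP 2 and 8.89 on IVP 3 (log2 signal), against 8.03 to 8.40 on the other conceptus arrays and 7.72 to 7.85 on FB arrays. The 3′ minus 5′ gap of the GAPDH control probe sets, which widens when RNA is degraded, was 0.21 to 0.38 in AI, 0.35 to 0.89 in IVP with IVP 3 at the top, 0.28 to 0.45 in SCNT and 0.01 to 0.06 in FB. Of 8 leukocyte and blood markers, 3 (CD48, ITGB2 and ALAS2) had a mean above log2 4 in AI and 1 in IVP and in SCNT. The summed linear signal of that list was 385 to 741 on AI arrays, 47.3 to 91.2 on IVP arrays and 49.8 to 74.3 on SCNT arrays, while PTPRC, CD3E, CD14, HBB and HBA were below log2 4 everywhere. No uterine epithelial marker of 4 reached log2 4 in any group.

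Between cloned and inseminated conceptuses, 9 subunits were called, all higher in SCNT. Of complex III, UQCRQ, UQCRB and UQCRH were higher in SCNT than in AI, with log2 differences of 0.79, 0.59 and 0.47. Of complex I, 4 subunits were higher, and of complex V, 2. These were 9 of 75 tested subunit genes (12%), a share below the 16.2% of all 6892 probe sets that were higher in SCNT, and 0 were lower against 11.4% of all probe sets. The median log2 difference was 0.15 over the 75 subunits and 0.08 over all probe sets (limma, p adjusted over all probe sets, threshold 0.05). In bulk tissue such as this, fewer cells of a type and less RNA per cell cannot be told apart.

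UQCRQ encodes a small accessory subunit of complex III. Its log2 signal was 6.81, 6.82 and 6.97 on the AI arrays, 7.38, 7.35 and 7.92 on the IVP arrays, 7.73, 7.78 and 7.44 on the SCNT arrays and 6.43, 6.47 and 6.29 on the FB arrays. Every SCNT and IVP array was above every AI array, and every FB array was below them all. SCNT exceeded AI 1.72-fold (log2 difference 0.79, 95% interval 0.41 to 1.16, limma adjusted p = 0.00745), and IVP exceeded AI 1.61-fold (0.68, 0.31 to 1.06, limma adjusted p = 0.0203). The IVP call was lost when AI 1, AI 2 or IVP 3 was omitted (limma adjusted p up to 0.0662).

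UQCRB, the ubiquinone-binding subunit, had log2 signals of 9.75, 9.80 and 9.76 in AI, 10.44, 10.08 and 10.52 in IVP, 10.37, 10.31 and 10.40 in SCNT and 9.74, 9.52 and 9.77 in FB. AI and FB arrays overlapped, and both groups lay below all IVP and SCNT arrays. The SCNT mean exceeded the AI mean by a log2 difference of 0.59 (95% interval 0.29 to 0.89, limma adjusted p = 0.00958). UQCRQ and UQCRB were the 2 subunits still called for SCNT against AI whichever array was left out. The IVP difference from AI was 0.57 (limma adjusted p = 0.0159), a call lost when AI 1, AI 3, IVP 1 or IVP 3 was omitted (limma adjusted p up to 0.0573).

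UQCRH, the hinge protein that helps cytochrome c dock on complex III, had log2 signals of 9.38, 9.51 and 9.44 in AI, 9.89, 9.80 and 10.01 in IVP, 10.09, 9.88 and 9.78 in SCNT and 9.58, 9.74 and 9.53 in FB. The AI arrays were the lowest of the 4 groups without overlap, and FB lay between AI and the other conceptuses. UQCR10, a small subunit needed for a stable complex, stood at 9.51, 9.34 and 9.39 in AI, 9.64, 9.90 and 10.05 in IVP and 9.87, 9.72 and 9.69 in SCNT. It was higher in IVP than in AI (log2 difference 0.45, limma adjusted p = 0.0442) and missed the threshold in SCNT against AI (0.35, limma adjusted p = 0.0821).

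The other genes of complex III did not pass the test between conceptus groups. These were the core proteins UQCRC1 and UQCRC2, the Rieske iron-sulphur protein UQCRFS1, which carries electrons towards cytochrome c1, and UQCR11. UQCRFS1 had log2 signals of 8.91, 8.87 and 8.94 in AI, 8.76, 8.76 and 9.16 in IVP and 9.28, 8.99 and 9.06 in SCNT, where IVP 3 alone of the IVP arrays reached the SCNT range. The log2 differences of SCNT from AI were 0.19 for UQCRC1, 0.31 for UQCRC2, 0.20 for UQCRFS1 and -0.11 for UQCR11. Over the 8 genes of complex III the median log2 difference was 0.33 for SCNT and 0.32 for IVP, both against AI, and 3 and 4 of the 8 were called higher.

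**Figure D1:**
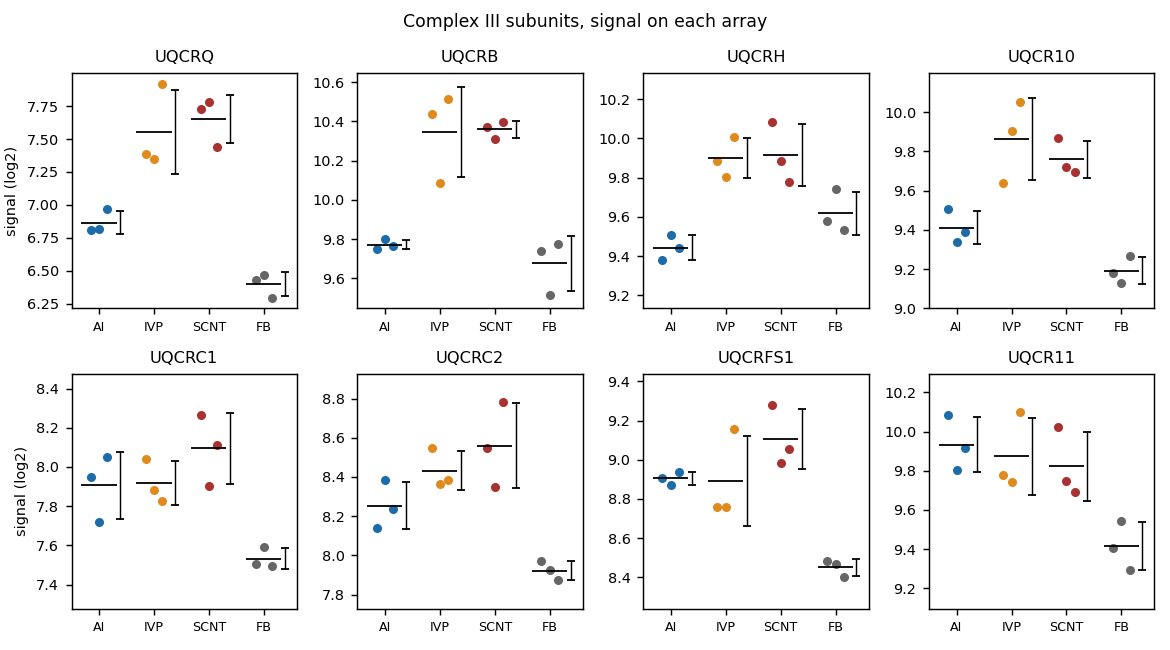
Log2 signal of the 8 complex III subunits on each of the 12 arrays, by group (points, 3 arrays each; bar, group mean; whisker, mean ± SD). For UQCRQ, UQCRB and UQCRH, and for UQCR10, all IVP and SCNT arrays lie above all AI arrays, while groups overlap or nearly touch for UQCRC1, UQCRC2, UQCRFS1 and UQCR11; the vertical scale differs between panels.

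In complex I, 4 of 35 subunits were higher in SCNT than in AI: NDUFB9, NDUFA5, NDUFB8 and NDUFS1. NDUFS1 is the large iron-sulphur subunit of the arm that oxidizes NADH, NDUFA5 is an accessory subunit of the matrix arm, and NDUFB8 and NDUFB9 are accessory subunits of the membrane arm. NDUFB9 had log2 signals of 8.08, 7.94 and 8.04 in AI, 8.40, 8.44 and 8.76 in IVP, 8.68, 8.64 and 8.42 in SCNT and 8.60, 8.63 and 8.50 in FB. AI arrays were the lowest of all groups, and the other 3 groups overlapped. The log2 difference from AI was 0.56 for SCNT (limma adjusted p = 0.0134) and 0.51 for IVP (limma adjusted p = 0.0282). Among omissions of 1 array, the SCNT call was lost only without SCNT 2 (limma adjusted p = 0.0538), and it was also lost without the filter on low values and in the limma test of at least 1.2-fold (adjusted p up to 0.151).

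NDUFA5 was at 9.17, 8.57 and 9.04 in AI and 9.42, 9.39 and 9.49 in SCNT on the log2 scale, with AI 2 the lowest array. Its log2 difference was 0.51 (limma adjusted p = 0.035), and IVP differed from AI by 0.23 (limma adjusted p = 0.336). A second, dimmer NDUFA5 probe set was higher in SCNT by 0.60 (limma adjusted p = 0.0125) and in IVP by 0.62 (limma adjusted p = 0.0152), so the 2 probe sets agreed on SCNT and not on the IVP call. NDUFB8 stood at 9.33, 9.53 and 9.56 in AI and 10.09, 9.85 and 9.85 in SCNT (log2 difference 0.46, limma adjusted p = 0.0406), with no overlap. NDUFS1 stood at 6.78, 7.02 and 6.95 in AI and 7.26, 7.24 and 7.37 in SCNT, again with no overlap (log2 difference 0.38, limma adjusted p = 0.0378). NDUFV1, which binds FMN and accepts the electrons of NADH, differed by 0.29 in SCNT and 0.26 in IVP and passed in neither.

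IVP conceptuses differed from AI in subunits of complexes I, III and V, with 4 of 8 subunits of complex III higher and 2 each of complexes I and V. Of 75 subunit genes 8 were higher in IVP (10.7%), near the 8.42% of all probe sets that were higher, and 0 were lower against 9.49% of all probe sets. The median log2 difference was 0.19 over the subunits and 0.02 over all probe sets. Beside the 4 complex III genes these were NDUFB9 and NDUFC1 of complex I and ATP5PF and ATP5F1E of complex V. NDUFC1, an accessory subunit of complex I, stood at 8.08, 8.48 and 8.13 in AI and 8.61, 8.61 and 9.0 in IVP on the log2 scale, with all 3 IVP arrays above AI (log2 difference 0.51, limma adjusted p = 0.0472). In SCNT it differed from AI by 0.36 (limma adjusted p = 0.112).

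In complex V, 2 of 17 subunits were higher in SCNT than in AI, ATP5PF and ATP5MC1, and 2 in IVP, ATP5PF and ATP5F1E. ATP5PF, coupling factor 6 of the peripheral stalk, had log2 signals of 9.10, 9.31 and 9.28 in AI, 9.75, 9.55 and 9.95 in IVP, 9.95, 9.57 and 9.67 in SCNT and 9.51, 9.52 and 9.46 in FB. All IVP and SCNT arrays lay above AI. Its log2 difference from AI was 0.50 in SCNT (limma adjusted p = 0.0312) and 0.52 in IVP (limma adjusted p = 0.037). ATP5F1E, the epsilon subunit of the central stalk, stood at 8.99, 9.14 and 9.22 in AI and 9.54, 9.49 and 9.82 in IVP, and its log2 difference was 0.50 (limma adjusted p = 0.0313). The catalytic subunits did not pass: ATP5F1A, the alpha subunit, differed from AI by 0.06 in SCNT and -0.28 in IVP, and ATP5F1B, the beta subunit that makes ATP, by 0.12 and -0.14.

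The ring of subunit c, through which protons pass, is built from 1 mature protein encoded by the genes ATP5MC1, ATP5MC2 and ATP5MC3. ATP5MC1 had log2 signals of 7.94, 8.30 and 8.01 in AI, 8.29, 8.23 and 8.52 in IVP and 8.84, 8.63 and 8.32 in SCNT. It was higher in SCNT than in AI by a log2 difference of 0.51 (limma adjusted p = 0.0422), although SCNT 3, at the bottom of its group, cleared AI 2 by little. ATP5MC2 differed by -0.26 in SCNT and -0.36 in IVP, and ATP5MC3 by 0.11 and 0.11, without a call. ATP5IF1, which inhibits the enzyme when the proton gradient collapses, differed by 0.14 in SCNT and 0.29 in IVP, without a call.

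Neither complex II nor complex IV had a subunit called between conceptus groups. Complex II is succinate dehydrogenase, which also serves the TCA cycle. SDHA, its flavoprotein, had log2 signals of 7.50, 7.10 and 7.75 in AI, 7.65, 7.32 and 7.95 in IVP and 7.99, 7.70 and 7.30 in SCNT, and the 3 groups overlapped throughout. The median log2 difference of SCNT from AI was 0.01 over the 4 complex II genes and -0.07 over the 11 tested genes of complex IV. COX4I1, a subunit involved in regulation by ATP, stood at 10.52, 10.30 and 10.55 in AI and 10.59, 10.53 and 10.36 in SCNT, a log2 difference of 0.04 with a 95% interval of -0.25 to 0.32. COX5A differed by -0.16 in SCNT and -0.25 in IVP, also without a call. COX7A2L, which joins complexes III and IV into supercomplexes, varied most within AI, at 7.93, 9.10 and 7.97, and without AI 2 its SCNT difference moved from -0.07 to 0.31, still not called.

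**Figure D2:**
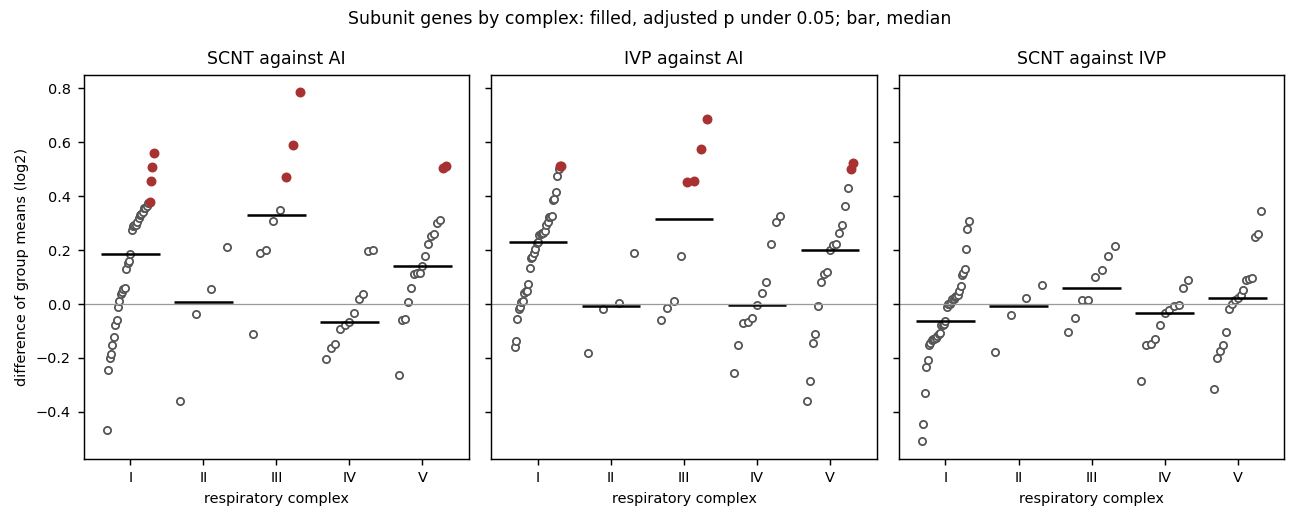
Log2 difference of group means for each tested subunit gene, ordered within its complex, in 3 comparisons between conceptus groups (filled red, limma adjusted p under 0.05; open, not called; bar, median of the complex). Called genes lie in complexes I, III and V only, and all are higher than AI: 9 in SCNT, 8 in IVP and 0 for SCNT against IVP.

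The calls depended on single arrays. Leaving out 1 array at a time gave 3 to 9 called subunits for SCNT against AI: 4 without AI 1, 3 without AI 3, 3 without SCNT 1, 3 without SCNT 2 and 5 without SCNT 3. For IVP against AI the range was 0 to 7, with 0 when AI 1 or IVP 3 was omitted, 1 for AI 3, 3 for AI 2 or IVP 1, and 5 for SCNT 2 or SCNT 3. With the GAPDH gap as a covariate 4 were called in SCNT and 0 in IVP, and when the 3 arrays with spike-ins near log2 8.9 were dropped together (AI 2, IVP 2, IVP 3), 7 and 0. Of the 9 SCNT calls 7 were lost in at least 1 of these omissions (limma adjusted p up to 0.133), and so were all 8 IVP calls (up to 0.154). In SCNT, UQCRH was lost without AI 1, AI 3, SCNT 1 or SCNT 2, ATP5PF without AI 1, AI 3, SCNT 1 or SCNT 3, and NDUFA5 without AI 2, AI 3 or any SCNT array. NDUFB8, NDUFS1 and ATP5MC1 were lost in 7, 7 and 6 of the 9 omissions. In IVP, NDUFB9 was lost without any AI array or IVP 3, ATP5F1E without any AI array, IVP 1 or IVP 3, and UQCRH without AI 1, AI 3, IVP 1, IVP 3 or SCNT 2. ATP5PF, UQCR10 and NDUFC1 were lost in 6, 7 and 8 of the 9. Of the leukocyte and blood markers, only CD48, ITGB2 and ALAS2 averaged above log2 4 in AI, higher there than in both other groups. Their part in these differences was not tested. The 5 genes called in both comparisons (ATP5PF, NDUFB9, UQCRB, UQCRH and UQCRQ) are measured against the same 3 AI arrays. A further 4 were called for SCNT and 3 for IVP.

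A pair of conceptus arrays stood high across complexes. The median deviation of the 75 subunits from their mean over the 9 conceptus arrays was -0.07, -0.12 and -0.11 on the AI arrays, 0.03, -0.05 and 0.21 on the IVP arrays and 0.22, 0.01 and -0.07 on the SCNT arrays. IVP 3 and SCNT 1 were the 2 highest arrays in complexes I, III, IV and V. For complex III the AI arrays stood together at -0.22, -0.25 and -0.24, below all other conceptus arrays. Over all tested probe sets the same medians ran from -0.08 to 0.06, with IVP 3 at -0.03 and SCNT 1 at 0.03. The median SD of a subunit gene was 0.12 in AI, 0.16 in IVP, 0.16 in SCNT and 0.07 in FB.

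**Figure D3:**
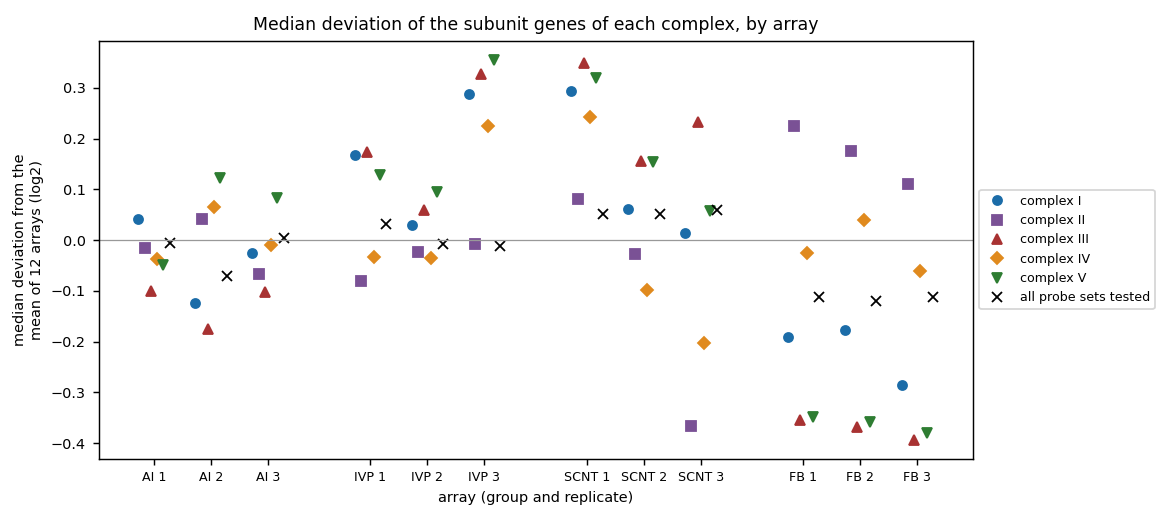
Median deviation of the subunit genes of each complex from their own mean over 12 arrays (log2), for each array, with all tested probe sets as crosses. IVP 3 and SCNT 1 are high in complexes I, III, IV and V, while the 3 FB arrays are low in complexes I, III and V and above 0 in complex II.

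SCNT and IVP conceptuses both start as embryos made outside the cow. No subunit was called among 75 (limma), against 0.232% of all probe sets higher and 0.348% lower in SCNT, and 3 had an unadjusted p under 0.05. These 3 were NDUFA2, an accessory subunit of complex I, with a log2 difference of -0.51 (limma adjusted p = 0.235), NDUFA9, another accessory subunit, with 0.31 (limma adjusted p = 0.362), and ATP5F1B with 0.26 (limma adjusted p = 0.379). NDUFA2 had log2 signals of 9.17, 8.98 and 8.75 in IVP and 8.71, 8.40 and 8.27 in SCNT, with no overlap, and 8.62, 8.40 and 8.72 in AI. For UQCRQ the difference was 0.10 with a 95% interval of -0.28 to 0.48, and for UQCRB 0.01 with -0.28 to 0.31. The median half-width of the unadjusted intervals was 0.32, so most differences under that size were not detectable with 3 arrays a group. Calls rest on the adjusted p, which NDUFA2 at -0.51 did not pass, so larger differences could also be missed.

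The conceptuses were also set against FB, the cell type whose nuclei were transferred. Most subunits of complexes III and V and 17 of 35 of complex I were higher in conceptuses, complex IV split evenly, and 2 of the 4 subunits of complex II were lower. In all, 40 of 76 tested subunits were higher (52.6%) against 46.0% of all 8164 probe sets, and 10 were lower (13.2%) against 36.6% of all probe sets. The median log2 difference was 0.35 over the subunits and 0.16 over all probe sets. Tissue and culture differ together here with cell type, so these cannot be told apart, and the GAPDH gap and spike-in signal were lower in FB. With the gap as a covariate 35 subunits were called.

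In complex V 11 of 17 subunits were higher in conceptuses and 0 lower, with a median log2 difference of 0.46. ATP5F1C, the gamma subunit that turns within the catalytic head, had log2 signals of 8.68, 8.75 and 8.66 in FB, against 9.83 to 10.07 on the 9 conceptus arrays. The gap was far wider than the spread on either side (2.36-fold, log2 difference 1.24, 95% interval 1.10 to 1.38, limma adjusted p = 2.18e-09). ATP5MC1 stood at 7.06, 7.17 and 7.05 in FB and at 7.94 to 8.84 in conceptuses, a log2 difference of 1.25 (limma adjusted p = 7.96e-07). ATP5MC3 stood at 10.74, 10.73 and 10.67 in FB and at 11.69 to 11.98 in conceptuses (1.16, limma adjusted p = 1.07e-08). The third gene of the same protein, ATP5MC2, overlapped between conceptuses and FB, and its difference was -0.07 (limma adjusted p = 0.534). ATP5F1A was higher by 0.59 and ATP5F1B by 0.46, while ATP5IF1 differed by 0.03 without a call.

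In complex III 7 of 8 subunits were higher in conceptuses, with a median log2 difference of 0.49. UQCRQ was higher by 0.96 (limma adjusted p = 1.38e-05), UQCRFS1 by 0.52 (limma adjusted p = 3.50e-04), UQCRC2 by 0.49 (limma adjusted p = 4.35e-04) and UQCRC1 by 0.44 (limma adjusted p = 0.00113). UQCRFS1 lost the call with the GAPDH gap as a covariate (limma adjusted p = 0.071). UQCRH was the gene not called, at 0.13, with AI arrays below FB and the other conceptus arrays above it.

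In complex I 17 of 35 subunits were higher and 4 lower. NDUFA9, an accessory subunit near the ubiquinone site, had log2 signals of 6.41, 6.41 and 6.43 in FB and 7.13 to 7.78 in conceptuses, a log2 difference of 1.0 (limma adjusted p = 3.11e-07). NDUFA11 was higher by 0.99 (limma adjusted p = 3.81e-05) and NDUFB5 by 0.98 (limma adjusted p = 2.18e-04), both accessory subunits of the membrane arm. Of the subunits that carry electrons, NDUFS1 was higher by 0.77 and NDUFV1 by 0.87. NDUFA3, an accessory membrane subunit, went the other way: its log2 signal was 8.18, 8.24 and 8.06 in FB and 7.05 to 7.73 in conceptuses, without overlap (-0.75, limma adjusted p = 1.38e-04). NDUFS5 was lower by 0.36 on the log2 scale and NDUFA7 by 0.31, but both overlapped between the sides and lost the call without FB 1 or FB 2 (limma adjusted p up to 0.0847 and 0.128). Both calls were also lost with the GAPDH gap as a covariate.

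Complex II split by its parts. SDHA and SDHB, the iron-sulphur protein, form the catalytic head and were both lower in conceptuses. SDHB had log2 signals of 8.66, 8.63 and 8.58 in FB and 7.90 to 8.22 in conceptuses, without overlap (-0.59, 95% interval -0.77 to -0.41, limma adjusted p = 3.36e-05). SDHA stood at 8.31, 8.35 and 8.07 in FB and 7.10 to 7.99 in conceptuses (-0.66, limma adjusted p = 0.00402). The membrane anchors went differently: SDHC was not called (0.12), and SDHD was higher by 0.40 (limma adjusted p = 0.0112), a call lost without FB 2 (limma adjusted p = 0.119).

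In complex IV, 4 of 12 subunits were higher and 4 lower. The COX7A isoforms differed from FB in opposite directions, while the isoforms COX8A and COX8B were both higher in conceptuses. COX7A1, the isoform known from heart and skeletal muscle, had log2 signals of 5.35, 4.98 and 5.11 in FB and 2.42 to 2.47 in conceptuses, at the floor of the array. It was at least 2.21-fold lower in conceptuses (limma adjusted p = 1.11e-11). Without any one of the FB arrays it no longer passed the filter of 3 arrays above log2 4 and was not tested. COX7A2, the isoform of most tissues, stood at 10.25, 10.22 and 10.21 in FB and 10.54 to 10.93 in conceptuses, higher in all 9 (0.50, limma adjusted p = 5.64e-05). Of 5 muscle markers 2 had a mean above log2 4 in FB and 1 in each conceptus group, with a summed linear signal of 958 to 1095 in FB and 245 to 450 in conceptuses, and ACTA1, TNNT2 and DES lay below log2 4 in all groups. Whether other cells in the culture carry the COX7A1 signal was not tested.

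COX5A, which takes part in regulation of the enzyme, showed the largest rise in conceptuses over FB among the 76 tested genes of the naming rule, which leaves out CYC1 of complex III, higher by 1.39. Its log2 signal was 9.33, 9.24 and 9.19 in FB and 10.38 to 10.83 in conceptuses, a 2.49-fold difference (log2 1.32, SE 0.08, limma adjusted p = 1.59e-08). COX4I1 was lower in conceptuses by 0.25 on the log2 scale (limma adjusted p = 0.0141), a call lost without FB 1 or FB 2 (limma adjusted p up to 0.0934). COX6C was lower by 0.41 (limma adjusted p = 0.00718), although IVP 3 lay above every FB array. COX6A1 was lower by 0.28 (limma adjusted p = 0.0244), and this call was lost without any one of the FB arrays (limma adjusted p up to 0.111). COX8A was higher by 0.33 (limma adjusted p = 0.011, lost without FB 3, at 0.0573), and COX8B, the muscle and heart isoform, by 0.30 (limma adjusted p = 0.00492). With the GAPDH gap as a covariate the calls of COX4I1, COX6A1, COX8A and COX8B were lost. NDUFA4 was not called (0.08), nor was COX7A2L (0.51, limma adjusted p = 0.0613), which was called higher when AI 1, AI 2, AI 3 or SCNT 2 was omitted (limma adjusted p down to 0.0253).

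The remaining isoforms gave no signal to compare. COX6A2, the muscle isoform of COX6A, lay at 2.42 to 2.43 on all 12 arrays, NDUFA4L2, which is induced by hypoxia, at 2.42 to 2.48, and COX6B2, the testis isoform, at 2.49 to 3.64, all below log2 4. Of the 21 dimmer probe sets of 19 genes, 18 lay below log2 4 on every array. They belong to ATP5F1A, ATP5F1B, ATP5F1D, COX6A1, COX6C, COX8B, NDUFA11, NDUFA4, NDUFA4L2, NDUFA5, NDUFA7, NDUFB1, NDUFS1, NDUFS3, UQCRB, UQCRC1 and UQCRC2, and of these only NDUFA5 had a second probe set that was tested, so a call for any other of them rests on 1 probe set that the dimmer one did not bear out. Of the 3 tested, that of ATP5MG, a membrane subunit of complex V, was lower in conceptuses than in FB by 0.31 on the log2 scale (limma adjusted p = 0.0112), whereas the brighter probe set differed by 0.05, so this gene is uncertain. That of NDUFB2 was higher in conceptuses by 0.25 without a call (limma adjusted p = 0.0582), against 0.96 for the brighter one. COX4I2, COX6B1 and COX7B were not analysed here, because no probe set carried any of these names as its single symbol.

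**Figure D4:**
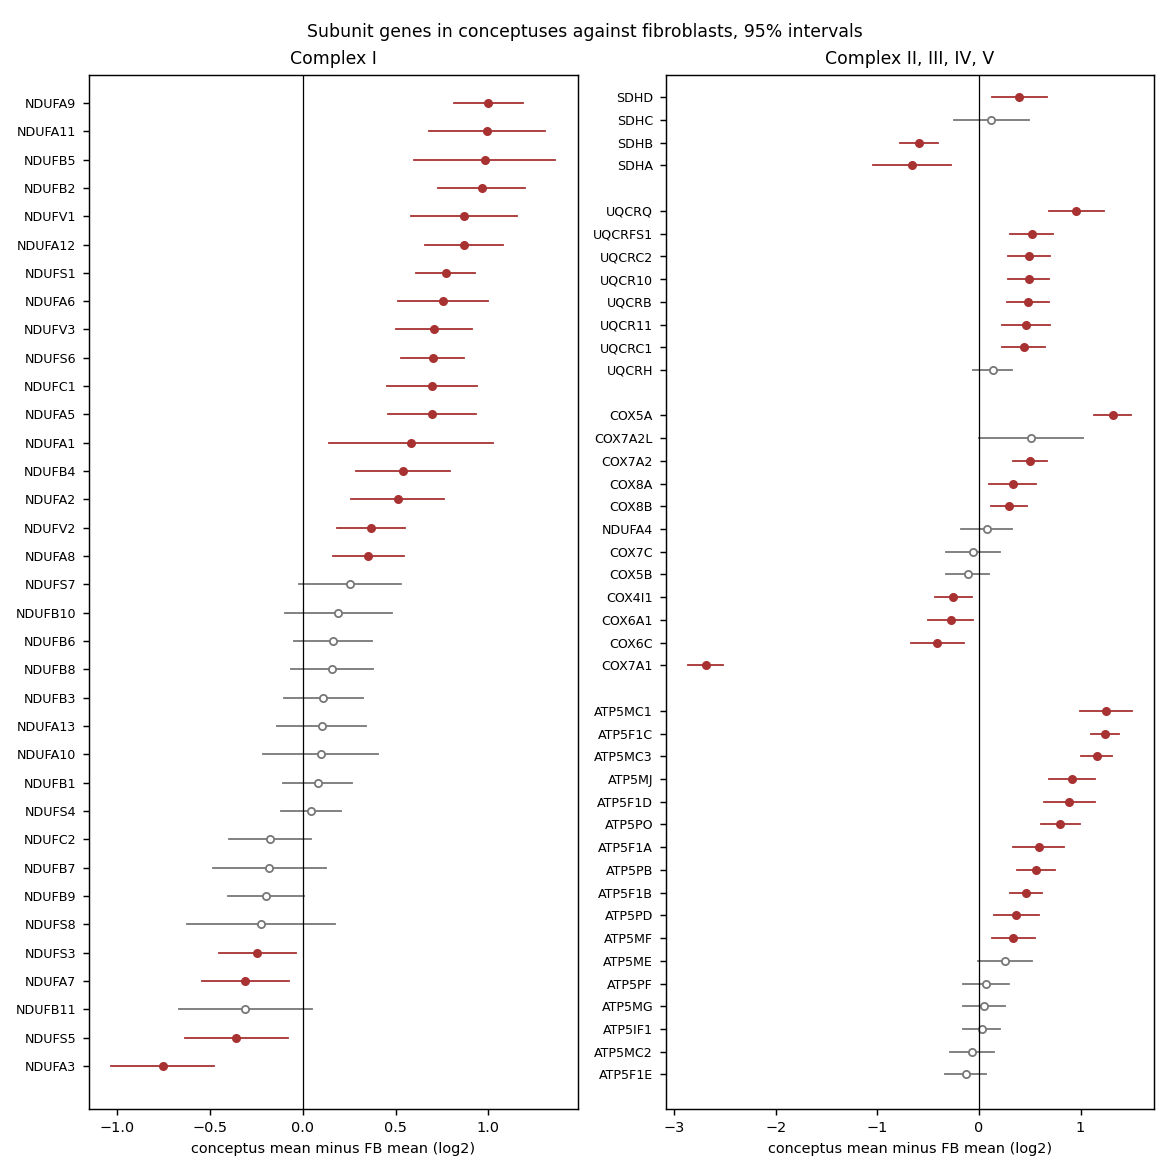
Mean log2 signal of the 9 conceptus arrays minus the mean of the 3 FB arrays for each of 76 subunit genes, with 95% intervals from limma (filled red, adjusted p under 0.05; open grey, not called), complex I on the left and complexes II to V from top to bottom on the right; the horizontal scales differ. COX5A has the highest value (1.32), COX7A1 the lowest (-2.69, with conceptuses at the floor), and all 8 complex III genes lie above 0.

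Other genes of the pathway came from 6 lists, and the counts that follow read against the same shares of all probe sets given above. Assembly factors build the complexes without being part of them. Of 24 tested, 7 were higher in SCNT than in AI and 0 lower, and 4 were higher in IVP and 0 lower. BCS1L, which inserts the Rieske protein into complex III, had log2 signals of 5.44, 5.50 and 5.58 in AI, 6.13, 6.10 and 6.11 in IVP, 6.29, 6.53 and 6.16 in SCNT and 5.26, 5.22 and 5.25 in FB. The groups stood in the order FB, AI, IVP and SCNT without overlap, SCNT exceeded AI by 0.82 (limma adjusted p = 0.00147), and IVP exceeded AI by 0.61 (limma adjusted p = 0.0094), though SCNT and IVP were not called different. NDUFAF8, an assembly factor of complex I, was higher by 0.70 in SCNT (limma adjusted p = 0.0358) and by 0.71 in IVP (limma adjusted p = 0.0463), and NDUFAF5, another, by 0.78 in IVP (limma adjusted p = 0.0242; lost without AI 1, AI 3, IVP 1 or IVP 3, up to 0.0738). NDUFAF5 was also higher in SCNT than in AI, by 0.66 (limma adjusted p = 0.0348), a call not followed through the omissions of arrays. The SCNT call for NDUFAF8 was lost without AI 1, AI 2, SCNT 1 or SCNT 2 (limma adjusted p up to 0.108). The IVP call was lost without AI 1, AI 2, IVP 1, IVP 3 or any SCNT array, which enter through the shared variance (up to 0.142). Against FB, 12 of 25 were higher in conceptuses and 4 lower, with COX19 at least 1.31-fold higher, CMC2 higher by 0.93 on the log2 scale, COX20 at least 1.47-fold lower and COA1 lower by 0.85 on the log2 scale, all factors of complex IV except that COA1 also serves complex I.

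The TCA cycle and pyruvate dehydrogenase feed NADH and succinate to the chain. Of 15 genes tested, 3 were higher in SCNT and 2 in IVP than in AI, and 0 were lower. IDH3A, the catalytic subunit of the NAD-dependent isocitrate dehydrogenase, had log2 signals of 6.43, 6.48 and 6.30 in AI, 7.72, 7.54 and 7.81 in IVP, 7.98, 8.08 and 7.97 in SCNT and 8.29, 8.41 and 8.23 in FB. The AI arrays were far below all others, and the log2 difference from AI was 1.61 in SCNT (3.05-fold, limma adjusted p = 2.43e-05) and 1.29 in IVP (2.44-fold, limma adjusted p = 1.35e-04), called in every setting tried. SUCLA2, a subunit of succinyl-CoA ligase, was higher by 0.58 in SCNT and 0.49 in IVP, the first lost without AI 1, SCNT 2 or SCNT 3 (limma adjusted p up to 0.0788) and the latter in 8 of 9 omissions of an array, without SCNT 1 being the exception (up to 0.13). Against FB, 11 of 16 were higher in conceptuses and 3 lower. PDHX and DLD, both parts of the pyruvate dehydrogenase complex, were higher by 1.46 and 1.41, while PDK3, a kinase that switches that complex off, was at least 2.12-fold lower and IDH3A was lower by 0.94 on the log2 scale.

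Enzymes and carriers that bring electrons or substrates to the chain held the few genes that were lower outside AI. GPD2, the glycerol phosphate dehydrogenase that passes electrons to ubiquinone, had log2 signals of 5.81, 5.78 and 5.75 in AI, 3.84, 5.42 and 3.33 in IVP, 3.43, 3.70 and 3.46 in SCNT and 2.50, 2.64 and 2.42 in FB. It was at least 3.43-fold lower in SCNT than in AI (limma adjusted p = 0.00302). In IVP, where IVP 2 lay near AI and the other arrays under log2 4, it was lower by at least 1.30 on the log2 scale, with signals under log2 4 set to 4 (limma adjusted p = 0.0204, or 0.0226 on the deposited values), and the latter call was lost without AI 1, AI 2, AI 3, IVP 1 or IVP 3 (limma adjusted p up to 0.0765). DHODH, which links pyrimidine synthesis to ubiquinone, was higher in SCNT than in AI by 0.82 (limma adjusted p = 0.00796). Of the 4 genes of electron entry, 1 was thus higher and 1 lower in SCNT, and 1 was lower in IVP. Against FB, 3 of 4 were higher in conceptuses, with GPD2 at least 1.42-fold and DHODH at least 1.90-fold. For GPD2 only the AI arrays and IVP 2 lay above log2 4, so no order of SCNT and FB can be read.

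SLC25A12, the aspartate-glutamate carrier of the malate-aspartate shuttle, had log2 signals of 6.56, 6.62 and 6.86 in AI, 3.41, 4.25 and 4.68 in IVP, 4.66, 3.80 and 3.50 in SCNT and 4.42, 4.59 and 4.46 in FB. It was at least 5.49-fold lower in SCNT than in AI (limma adjusted p = 3.77e-04) and lower in IVP by at least 2.37 on the log2 scale, with IVP 1, under log2 4, set to 4 (limma adjusted p = 2.46e-04). SLC25A20, the carnitine-acylcarnitine carrier, stood at 7.35, 6.74 and 7.83 in AI, 5.44, 5.81 and 5.66 in IVP and 5.23, 5.75 and 5.81 in SCNT, lower by 1.71 in SCNT (limma adjusted p = 0.00118) and by 1.67 in IVP (limma adjusted p = 0.00197). Both carriers sat near the FB level in SCNT and IVP and above it in AI. Of 10 carriers and pores tested, 2 were higher and 2 lower in SCNT, and 0 higher and 2 lower in IVP. The 2 higher were the outer membrane pores VDAC3 (0.57, limma adjusted p = 0.027; lost without AI 1, AI 2 or SCNT 3, up to 0.0954) and VDAC2 (0.36, limma adjusted p = 0.0444; lost without any one of the 9 arrays, up to 0.141).

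Of the genes for the exchange of ADP for ATP, SLC25A4 and SLC25A5 differed from FB in opposite directions. SLC25A4, the translocase known from heart and muscle, had log2 signals of 8.49, 8.58 and 8.56 in FB and 6.45 to 6.94 in conceptuses, lower in conceptuses by 1.87 (limma adjusted p = 1.08e-08). SLC25A5, the form of proliferating cells, stood at 9.14, 9.07 and 9.11 in FB and 10.13 to 10.88 in conceptuses, higher by 1.33 (limma adjusted p = 1.95e-06). Neither overlapped. VDAC2 was higher by 0.84 and VDAC3 lower by 0.90. In the list as a whole 4 of 10 were higher and 3 lower.

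**Figure D5:**
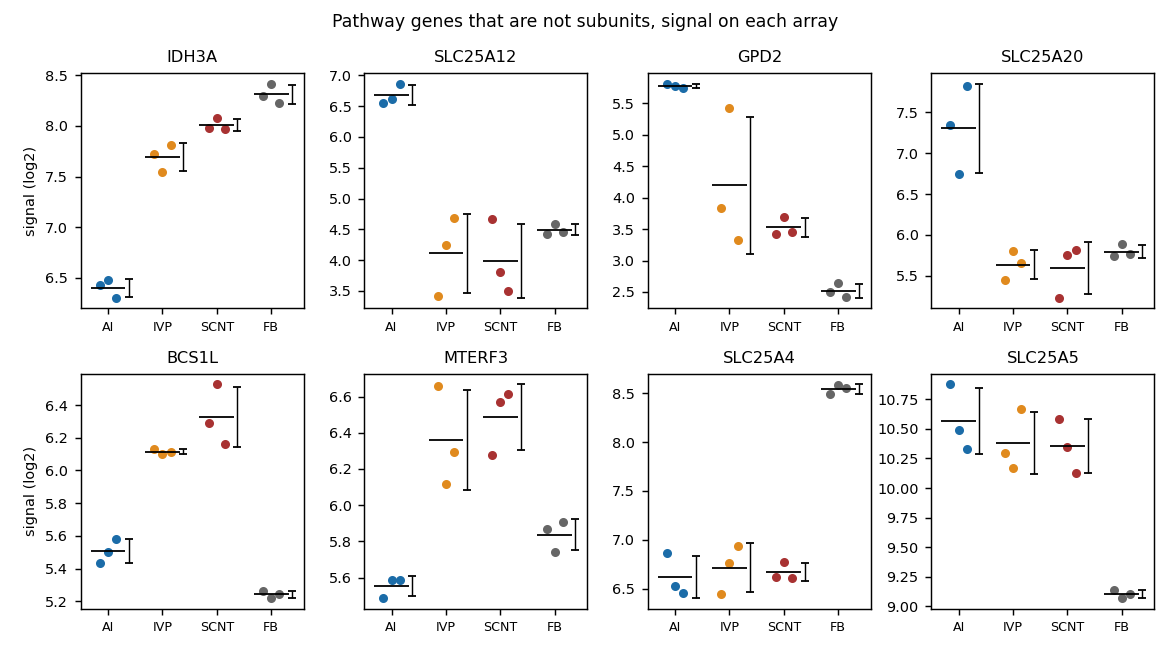
Log2 signal on each of the 12 arrays of 8 pathway genes that are not subunits, by group (points, 3 arrays each; bar, mean; whisker, mean ± SD). IDH3A, BCS1L and MTERF3 are lowest in AI among the conceptuses and SLC25A12 and SLC25A20 highest, IVP 2 stands near AI for GPD2, and SLC25A4 and SLC25A5 separate FB from conceptuses in opposite directions; the vertical scale differs between panels.

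Regulators of the mitochondrial genome were higher where they differed. Of 7 tested, 3 were higher in SCNT than in AI, 2 in IVP than in AI, and 7 in conceptuses than in FB, with 0 lower in each. MTERF3, a regulator of mitochondrial transcription and ribosome assembly, had log2 signals of 5.49, 5.59 and 5.59 in AI, 6.66, 6.12 and 6.29 in IVP and 6.28, 6.57 and 6.61 in SCNT (SCNT over AI 0.93, limma adjusted p = 0.00231; IVP over AI 0.80, limma adjusted p = 0.00716). SSBP1, which coats single-stranded mitochondrial DNA, was higher by 0.70 in SCNT (limma adjusted p = 0.00465) and 0.54 in IVP (limma adjusted p = 0.0216; lost without AI 2, AI 3, IVP 1 or IVP 3, up to 0.0762). Against FB, POLG, the polymerase of mitochondrial DNA, was at least 2.38-fold higher and PPRC1, a coactivator, at least 2.02-fold higher. Of the subunits outside the naming rule, CYC1, cytochrome c1 of complex III, and NDUFAB1, the acyl carrier protein of complex I, were not called between conceptus groups and were higher than in FB by 1.39 and 0.83. No gene of the 6 lists was called between SCNT and IVP (limma), and 2 of the 62 tested had an unadjusted p below 0.05.

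Other protein families of the same kind are given for scale. Of 67 mitochondrial ribosomal protein genes 32 were higher and 0 lower in SCNT than in AI (median log2 difference 0.43), 12 were higher in IVP (0.30), and 52 were higher and 4 lower in conceptuses than in FB (0.54). Of 64 tested cytosolic ribosomal protein genes 2 were higher in SCNT (median 0.09), 2 in IVP (0.12), and 20 were higher and 7 lower in conceptuses than in FB (0.09). The medians of the respiratory subunits, 0.15, 0.19 and 0.35, lay between those of the 2 ribosomal families in each comparison. The difference between the families was not tested.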

How the data were processed

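RNA of 9 conceptus and 3 fibroblast samples was amplified and measured on Affymetrix bovine arrays, per the labels' protocols. The table deposited by the authors holds log2 signals of 24128 probe sets, made with GCRMA per the submitters' processing notes, which also name limma; their versions are not stated in these sources, nor whether all arrays were normalized together. GCRMA subtracts background by a model, so low signals pile up: 36.9% of values lay within 0.01 of the lowest, 2.42, and differences near that floor are compressed. The 112 control probe sets were left out of the tests.

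The platform's annotation gave 13292 probe sets 1 symbol, 86 several and 10638 none. The gene IDs of all 79 members were found in RefSeq's ARS-UCD2.0 table, with 0 symbols changed. The values were used as deposited. A probe set entered a limma fit (limma 3.58.1, R 4.3.3) if 3 or more of its arrays exceeded log2 4, which left 6892 over the 9 conceptus arrays (6 residual degrees of freedom) and 8164 over all 12 (8 degrees). Tests are two-sided, adjusted by Benjamini and Hochberg over all probe sets of a comparison, with a call at an adjusted p under 0.05 and 95% intervals. For a group averaging under log2 4, arrays under that level were raised to it, so such a fold is a lower bound. Levels of different probe sets are not compared. The number of arrays limits the precision.

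Named genes are all called members of the conceptus comparisons, the 3 largest called rises and falls of each complex against FB, a set of catalytic subunits and isoforms whether called or not, and the 2 largest called pathway genes in each direction per list; other subunits named were chosen after their values were seen. Members, lists and tests were chosen with earlier results of these data known. Alternatives were other filters, normalizations, thresholds, variance models, probe set rules and sets of arrays, a replicate block and the GAPDH gap as a covariate. The scripts were tested on simulated data. A planned search of promoter sequences was not run.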

Additional observations from a re-analysis of the deposited data

How the results depend on the processing

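Of the called subunits and pathway genes followed through the settings (21 for SCNT against AI, 17 for IVP against AI and 46 against FB), 0 changed direction; the others called against FB were not followed singly. The count of called subunits for SCNT against AI, 9, fell to 4 without a filter on low values, 4 with the GAPDH gap as a covariate, 2 at an adjusted p under 0.01 and 0 in the limma test of at least 1.2-fold, and was 3 to 9 when 1 array was left out. For IVP against AI the count of 8 became 0 without the filter, 0 with the GAPDH covariate and 0 without AI 2, IVP 2 and IVP 3. It was 0 at 0.01, 0 in the 1.2-fold test, 2 with the replicate block and 0 to 7 with 1 array left out. The cause of these losses was not tested. Some of these settings bring fewer arrays, a stricter threshold or more probe sets, and their parts were not separated. Quantile normalization gave 7 and 7, centring on the median 6 and 7, and all 12 arrays in 1 fit 11 and 12. SCNT against IVP stayed at 0 in every setting. Against FB the count of 50 ranged from 34, in the 1.2-fold test, to 53. Of the genes followed, 6 of 21 kept the call in all settings for SCNT against AI, 2 of 17 for IVP against AI and 36 of 46 against FB. Same-numbered arrays of different groups did not deviate together (r from -0.15 to 0.15 over 9 pairs). Arrays of different number gave r from -0.14 to 0.18 over 18 pairs. So few arrays cannot exclude that the numbers mark pairs or batches. With the replicate block 6 subunits were called for SCNT against AI. A search of promoter sequences was planned and not run, as no sequence table was used here.

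With 3 arrays a group, limma intervals of single subunits spanned about 0.32 on either side between conceptus groups and 0.22 against FB. Signals below log2 4 have no order, so COX7A1, GPD2, SLC25A12 and other genes at the floor have only bounds. Identity of the replicates is not stated, and gene names rest on probe sets of an old array design.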
